A study of Saccharomyces cerevisiae with 4 samples.

Results

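The aminoacyl-tRNA synthetases of budding yeast (*Saccharomyces cerevisiae*) were followed across 4 libraries as a set of 37 genes, among 6549 entries listed in each library. The members were taken from a fixed list of gene names. The files named 36 of them, and *AIM10* was found as YER087W, its ORF name in a RefSeq gene table (S288C, assembly R64). The set held 23 genes of the cytosolic enzymes and 14 genes of the mitochondrial enzymes. Of the 23, 5 were grouped as encoding enzymes that serve the cytosol and the mitochondria from 1 gene. Another, *ARC1*, encodes a tRNA-binding cofactor rather than a synthetase.

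Aminoacyl-tRNA synthetases join each amino acid to its tRNA and so supply the ribosome with charged tRNA. Yeast mitochondria carry out their own protein synthesis, and most of the mitochondrial synthetases are encoded by separate nuclear genes, translated in the cytosol and imported. The synthetases fall into class I and class II, which have unrelated catalytic folds. No sequence of these genes was used here.

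Ribosome footprints (FP), the mRNA fragments shielded by ribosomes, and mRNA fragments were each sequenced once from wild-type and *dbp1Δ::kanMX6* diploid SK1 cells, 4 h after transfer to sporulation medium and after 1 min of the elongation inhibitor cycloheximide. In the latter, called the mutant below, both copies of *DBP1*, which encodes a DEAD-box RNA helicase, were replaced by a kanMX6 cassette. The strain list of the study holds more than 1 diploid pair of these genotypes, and the sources used here do not say which was sequenced. These pairs share the *trp1::hisG*, *ura3*, *his3::hisG*, *lys2* and *ho::LYS2* alleles, and differ at *LEU2* and in a 3V5 tag on *DED1*. *MRP51*, the gene next to *DBP1*, had 47.0 RPKM of footprints in wild type and 5.6 RPKM in the mutant, with mRNA of 96.8 and 173.8 RPKM, and the loss of *DBP1* and an effect of the cassette cannot be told apart in these libraries. Each genotype and assay has 1 library, so the differences below come without replicates and without a test. Values are RPKM, reads normalized to ORF length and to library size (mapped reads). Bracketed ranges are 95% intervals of inferred reads. They cover counting error only.

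The libraries held an inferred 2220000 to 4770000 mapped reads. *DBP1* itself had 435.2 RPKM of footprints and 131.5 RPKM of mRNA in wild type, and 6.9 and 2.9 RPKM in the mutant. The deleted ORF thus kept an inferred 42 footprint reads in the mutant, whose source was not tested. Mutant footprints of *MES1*, *CDC60*, *MSM1*, *ISM1*, *MSK1* and *MSD1* were at or below this 6.9 RPKM, and their intervals do not cover such signal. All 8 early meiotic markers (among them *IME2*, *HOP1* and *DMC1*) were well expressed in both genotypes, at 203.5 RPKM or more in every library. They were higher in the mutant, but relative to the median entry 6 of the 8 were above for footprints and 5 for mRNA, and *IME2* and *DMC1* were below in both assays. All 8 middle meiotic markers (among them *CLB1*, *SPS4* and *SMK1*) were lower in the mutant, their summed footprints being 17825 RPKM in wild type against 5886 RPKM in the mutant and their summed mRNA 21615 against 8189 RPKM. The 5 haploid-specific markers summed to between 42.2 and 272.2 RPKM. The genotypes thus differed in markers of meiotic stage, and the part of this difference in the values below was not tested.

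In wild type, the cytosolic enzymes were expressed far above the mitochondrial ones. Median footprints were 60.3 RPKM (range 6.5 to 515.2) for the 23 cytosolic members and 7.90 RPKM (2.3 to 16.9) for the 14 mitochondrial members, a ratio of 7.63. Median mRNA was 76.1 RPKM (19.3 to 264.2) and 13.9 RPKM (6.6 to 28.5), a ratio of 5.49. For comparison, over the 5552 entries that averaged 10 RPKM or more in the 4 libraries, the median was 41.3 RPKM for footprints and 58.3 RPKM for mRNA. Of the cytosolic members, 20 had more footprints than *SLM5*, the mitochondrial asparaginyl enzyme, which had the most footprints among the mitochondrial members. The exceptions were *GRS2* (6.5 RPKM), *CDC60* (12.7 RPKM) and *YNL247W* (16.2 RPKM). *MSM1*, *ISM1*, *MSK1* and *MSD1* were the 4 members below a mean of 10 RPKM and rest on 19 to 57 inferred footprint reads in wild type. The plot of levels by gene shows this separation, with wild-type and mutant values joined for each gene.

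**Figure D1:**
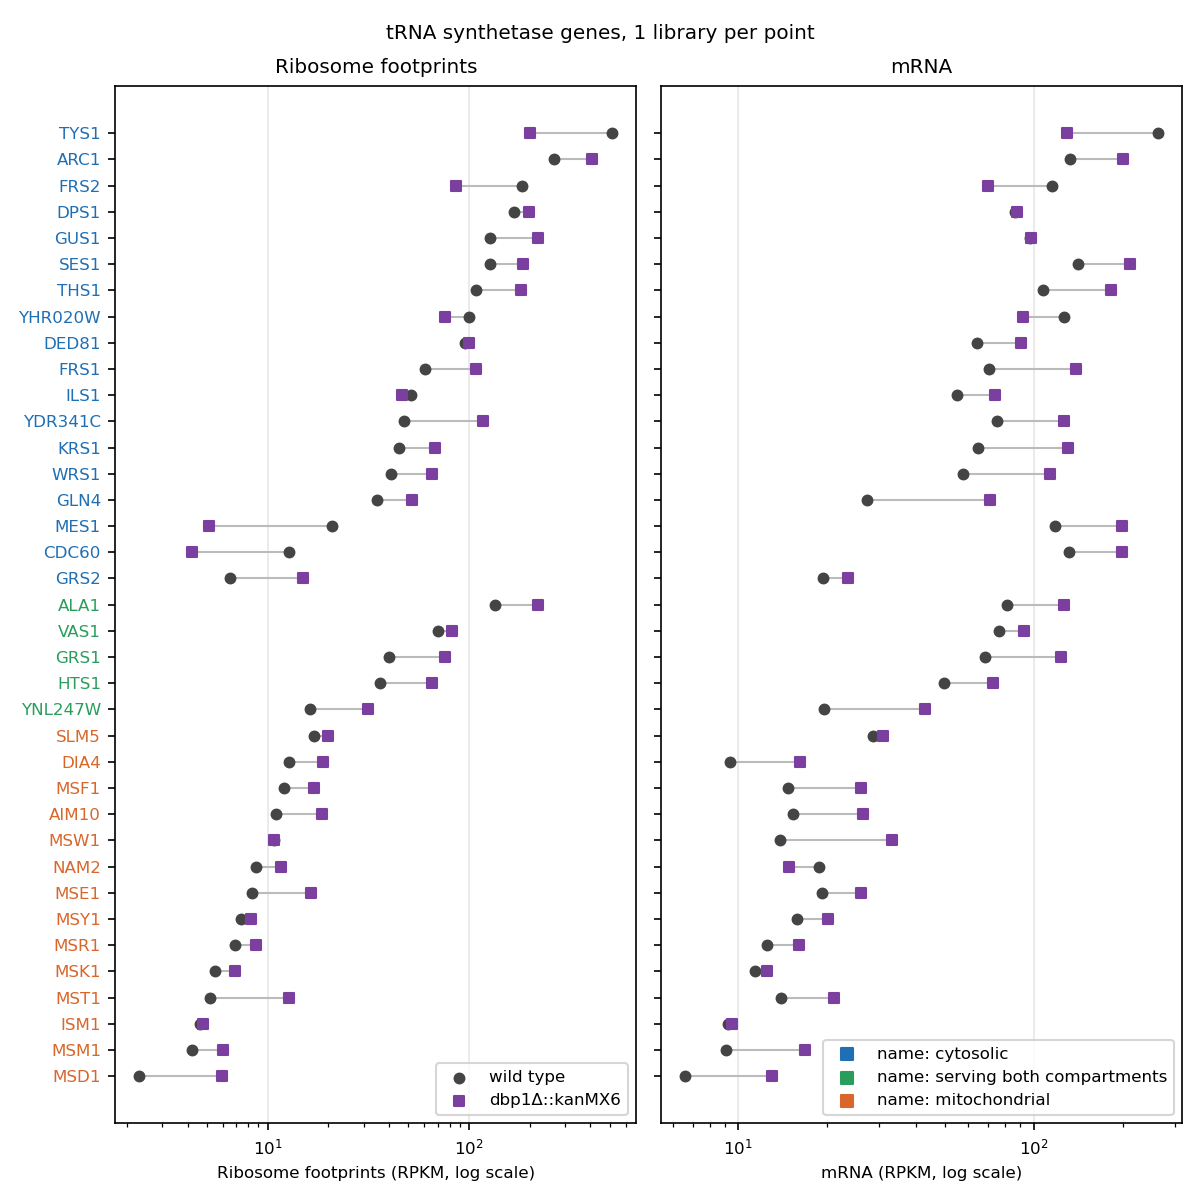
RPKM of each of the 37 members (log scale), with ribosome footprints in the left panel and mRNA in the right panel. Circles are wild type and squares are the mutant, 1 library each, joined by a line, and name colours give the compartment. The 14 mitochondrial members lie at or below 20.0 RPKM of footprints in both genotypes, and *MES1* and *CDC60* have low footprints beside high mRNA.

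Together the cytosolic members took 0.399% (0.393 to 0.406) of mapped footprint reads in wild type and 0.480% (0.472 to 0.487) in the mutant. The mitochondrial members took 0.0195% (0.0182 to 0.0209) and 0.0276% (0.0259 to 0.0295). Their shares of mRNA reads were 0.397% and 0.542% for the cytosolic members, and 0.0342% and 0.0464% for the mitochondrial members. Both groups thus held a larger share of reads in the mutant in both assays. The median entry was also higher there, by 1.27-fold for footprints and 1.29-fold for mRNA, so a larger share is not particular to these groups. The percentages are shares of each library and not amounts per cell. In bulk samples, fewer cells of a type and less RNA per cell cannot be told apart.

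Translation efficiency (TE), FP RPKM divided by mRNA RPKM, also had a higher median in wild type for the cytosolic members, although the groups overlapped and 6 of the 23 exceeded every mitochondrial member. The median TE was 0.897 for the cytosolic and 0.491 for the mitochondrial members, and 0.743 over all entries. TE was highest for *ARC1* (1.99, 1.76 to 2.25), the tyrosyl enzyme *TYS1* (1.95, 1.79 to 2.12) and the aspartyl enzyme *DPS1* (1.93, 1.70 to 2.19), whose intervals overlap. Mitochondrial TE ran from 0.348 for *MSD1* to 1.36 for *DIA4*, the seryl enzyme. The lowest TE of the set, however, belonged to cytosolic members. The leucyl enzyme *CDC60* had a TE of 0.0967 (0.0818 to 0.114) and the methionyl enzyme *MES1* 0.176 (0.149 to 0.208), at ranks 168 and 302 from the lowest of 5484 entries. *GRS2*, a paralog of the glycyl enzyme *GRS1*, followed at 0.337 (0.232 to 0.487).

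In the mutant most members had more footprints and more mRNA than in wild type, as did most entries. Footprints were higher for 30 of the 37 members and lower for 7, and mRNA was higher for 33 and lower for 4, while 68.7% and 71.3% of all entries were higher. Relative to the median entry, which differed by 0.35 (footprints) and 0.37 (mRNA) on the log2 scale, the split was 23 above and 14 below for footprints and 24 above and 13 below for mRNA. The median log2 footprint change was 0.59 for the cytosolic and 0.45 for the mitochondrial members, and the median mRNA change was 0.59 and 0.52. The median TE change was −0.06 and 0.005, against −0.07 over all entries. Without the 5 enzymes that serve both compartments, the cytosolic median TE change was −0.21, below that of all entries. The footprint and mRNA medians of both groups lay near each other and above the median entry. For footprints the spread was wider among the cytosolic members, with quartiles of −0.04 and 0.82 against 0.26 and 0.71. For mRNA the quartiles were 0.29 and 0.81 for the cytosolic and 0.19 and 0.82 for the mitochondrial members, no wider for the former. The cytosolic footprint changes ran from −2.03 to 1.31 on the log2 scale, and those of the mitochondrial members from −0.01 to 1.36.

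The shares of members past 2-fold were near or below those of all entries. The shares of all entries cover those averaging 10 RPKM or more, whereas the members include 4 below that mean, *MSD1* among them. Footprints were at least 2-fold higher for 4 members (10.8%, against 15.1% of all entries) and at least 2-fold lower for 4 (10.8%, against 8.23%). Both measures were at least 2-fold lower for *TYS1* alone, against 3.32% of entries. For mRNA, 4 members were at least 2-fold higher (10.8%, against 16.6%) and 1 was lower (2.70%, against 4.18%). For TE, 0 members were at least 2-fold higher (against 3.43%) and 3 were lower (8.11%, against 6.07%). The 3 were *MES1*, *CDC60* and *MSW1*, all class I enzymes. After centring on the median entry, footprints were at least 2-fold higher for 1 member, *MSD1* (2.70%, against 6.36%), and at least 2-fold lower for *MES1*, *CDC60*, *FRS2* and *TYS1* (10.8%, against 12.8%). Centred mRNA was at least 2-fold higher for 1 member, *GLN4* (2.70%, against 7.1%), and lower for *FRS2* and *TYS1* (5.41%, against 8.43%). Centred TE was higher for 0 members (against 3.91%) and lower for the same 3 genes (8.11%, against 5.34%). At a 1.5-fold threshold, footprints were higher for 17 members (45.9%, against 36.3% of entries) and lower for 4 (10.8%, against 13.9%). By the same threshold, mRNA was higher for 19 (51.4%, against 36.0%) and lower for 2 (5.41%, against 9.12%), whereas TE was higher for 4 (10.8%, against 10.7%) and lower for 4 (10.8%, against 18.0%). At a 4-fold threshold, 0 members were higher for footprints (against 1.21%), mRNA (against 1.03%) or TE (against 0.367%), 0 were lower for mRNA (against 0.811%), 1 was lower for footprints, *MES1* (2.70%, against 2.15%), and 2 were lower for TE, *MES1* and *CDC60* (5.41%, against 1.06%).

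**Figure D2:**
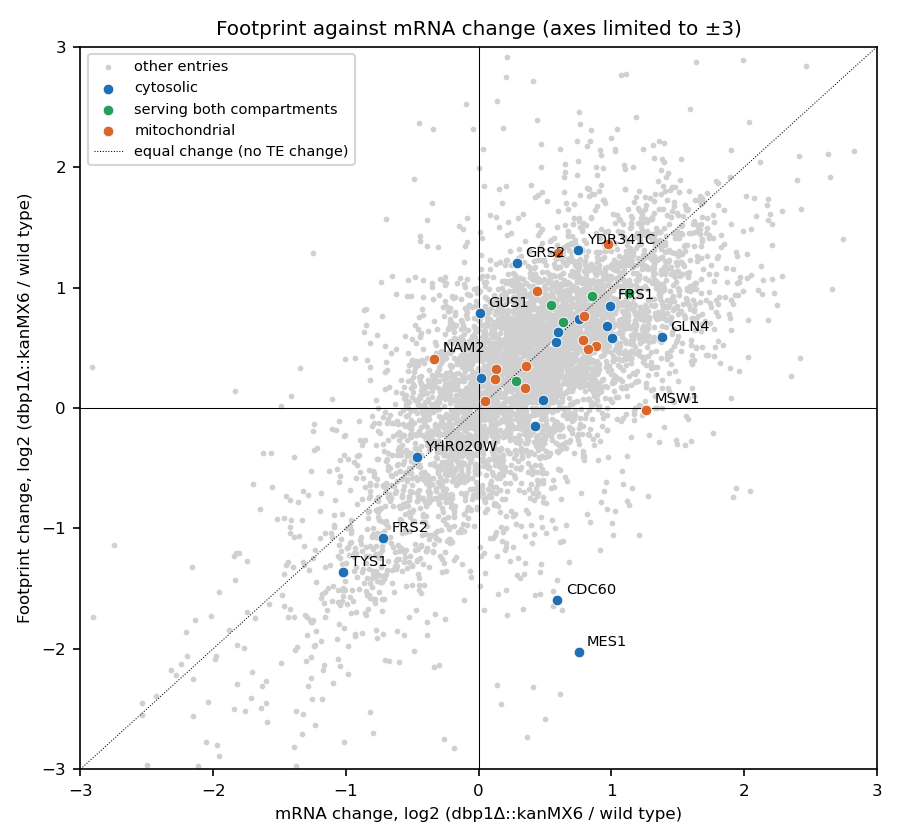
Log2 footprint change against log2 mRNA change, mutant over wild type, for the 37 members in colour and the other entries averaging 10 RPKM or more in grey. The dotted line marks equal change in both assays, and 71 of 5452 entries lie outside the axes. *MES1* and *CDC60* lie below the other members, at higher mRNA and lower footprints, and *TYS1*, *FRS2* and YHR020W lie in the lower left with both measures lower.

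*MES1* (YGR264C), the cytosolic methionyl-tRNA synthetase, which charges initiator and elongator tRNA alike, combined more mRNA with fewer footprints. Its mRNA was 118.0 RPKM (wild type) and 199.1 RPKM (mutant), 1.69-fold higher (1.54 to 1.85). Its footprints were 20.8 and 5.1 RPKM, an inferred 193 and 37 reads, 4.08-fold lower (2.89 to 6.03). Its TE was thus 6.88-fold lower (4.81 to 10.3), at rank 24 from the largest decrease among 5452 entries. *MES1* had come to attention for this combination in an earlier look at the same libraries, so these values describe it and are not independent support.

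*CDC60* (YPL160W), the cytosolic leucyl-tRNA synthetase, had the same combination to a lesser degree. Its mRNA was 131.3 RPKM (wild type) and 198.3 RPKM (mutant), 1.51-fold higher (1.40 to 1.63). Its footprints were 12.7 and 4.2 RPKM, an inferred 171 and 45 reads, 3.02-fold lower (2.15 to 4.27). Its TE was 4.57-fold lower (3.22 to 6.50), at rank 45. The TE of *CDC60* and *MES1* in the mutant, 0.0212 (0.0155 to 0.0286) and 0.0256 (0.0178 to 0.0350), was the lowest of the set, and the intervals overlap. Relative to the median entry, mRNA of *MES1* and *CDC60* was still 1.31-fold and 1.17-fold higher, and their footprints were 5.19-fold and 3.85-fold lower. Footprints at least 2-fold lower with higher mRNA were found for these 2 members (5.41%) and for 1.03% of entries. Footprints lower by any amount with higher mRNA were found for 4 members (10.8%), *ILS1* and *MSW1* besides these, and for 11.1% of entries. *MES1* and *CDC60* thus had a low TE in wild type and a still lower one in the mutant. Their mutant footprints were below the 6.9 RPKM left at the deleted *DBP1* ORF, a level the intervals do not allow for. RPKM per ORF gives no information on transcript ends or upstream translation, which were not analysed here.

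*TYS1* and *FRS2* were lower in both assays. *TYS1*, the cytosolic tyrosyl enzyme, was the most highly expressed member in wild type, with 515.2 RPKM of footprints and 264.2 RPKM of mRNA. The mutant values were 200.4 and 130.1 RPKM, 2.57-fold lower (2.37 to 2.79) and 2.03-fold lower (1.83 to 2.26), so its TE differed by only 1.27-fold (1.11 to 1.45). YHR020W, the cytosolic prolyl enzyme, was lower to a lesser extent, with footprints of 100.5 (wild type) and 75.7 RPKM (mutant), mRNA of 127.0 and 92.1 RPKM, and differences of 1.33-fold (1.19 to 1.48) and 1.38-fold (1.24 to 1.53). *DED81*, the asparaginyl enzyme and the neighbor of YHR020W in gene order, was not lower. Its mRNA was 64.5 and 90.3 RPKM, 1.40-fold higher (1.21 to 1.63), although close to the median entry, and its footprints of 95.6 and 100.4 RPKM had an interval that included no change (0.935 to 1.18).

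The subunits of phenylalanyl-tRNA synthetase differed between the genotypes in opposite directions. This enzyme is a tetramer of equal numbers of the alpha subunit, Frs2, and the beta subunit, Frs1. *FRS2* footprints were 182.6 RPKM (wild type) and 86.2 RPKM (mutant), 2.12-fold lower (1.89 to 2.37), and its mRNA was 115.2 and 69.9 RPKM, 1.65-fold lower (1.44 to 1.89). *FRS1* footprints were 60.3 and 108.7 RPKM, 1.80-fold higher (1.60 to 2.04), and its mRNA was 70.3 and 139.5 RPKM, 1.98-fold higher (1.74 to 2.27). Footprints of *FRS2* relative to *FRS1* were therefore 3.03 (2.71 to 3.39) in wild type and 0.793 (0.700 to 0.899) in the mutant, a 3.82-fold difference (3.23 to 4.52) that does not depend on the scaling of the libraries. For mRNA the ratio was 1.64 (1.40 to 1.92) and 0.501 (0.450 to 0.556), a 3.27-fold difference (2.71 to 3.96). Footprints and mRNA of the subunits thus differed to a similar extent, and TE was 1.10-fold lower for *FRS1*, with an interval that included no change, and 1.29-fold lower for *FRS2* (1.07 to 1.53).

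The members of the Arc1 complex also parted. Arc1 binds the methionyl enzyme Mes1 and the glutamyl enzyme Gus1 and delivers tRNA to them. *ARC1* footprints were 264.6 and 410.0 RPKM in wild type and the mutant, 1.55-fold higher (1.44 to 1.67), with mRNA of 133.1 and 201.2 RPKM, 1.51-fold higher (1.34 to 1.71). *GUS1* footprints were 127.3 and 220.2 RPKM, 1.73-fold higher (1.60 to 1.87), with mRNA of 97.1 and 97.7 RPKM, which left its TE 1.72-fold higher (1.50 to 1.97). Compared with *MES1*, *ARC1* had 12.7-fold more footprints in wild type (10.9 to 14.9) and 80.4-fold more in the mutant (58.7 to 116). The mutant ratio rests on *MES1* footprints of 5.1 RPKM, below the 6.9 RPKM left at the deleted *DBP1* ORF. Its interval does not allow for such signal. The mRNA of *ARC1* and *MES1* was about equal in both genotypes, with ratios of 1.13 (0.983 to 1.29) and 1.01 (0.938 to 1.09). In footprints, *ARC1* relative to *GUS1* differed little, at 2.08 and 1.86, and *MES1* stood apart from both. In mRNA, however, *ARC1* relative to *GUS1* was 1.37 (1.18 to 1.58) and 2.06 (1.89 to 2.25), 1.50-fold higher in the mutant (1.27 to 1.78), so there *GUS1* stood apart.

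**Figure D3:**
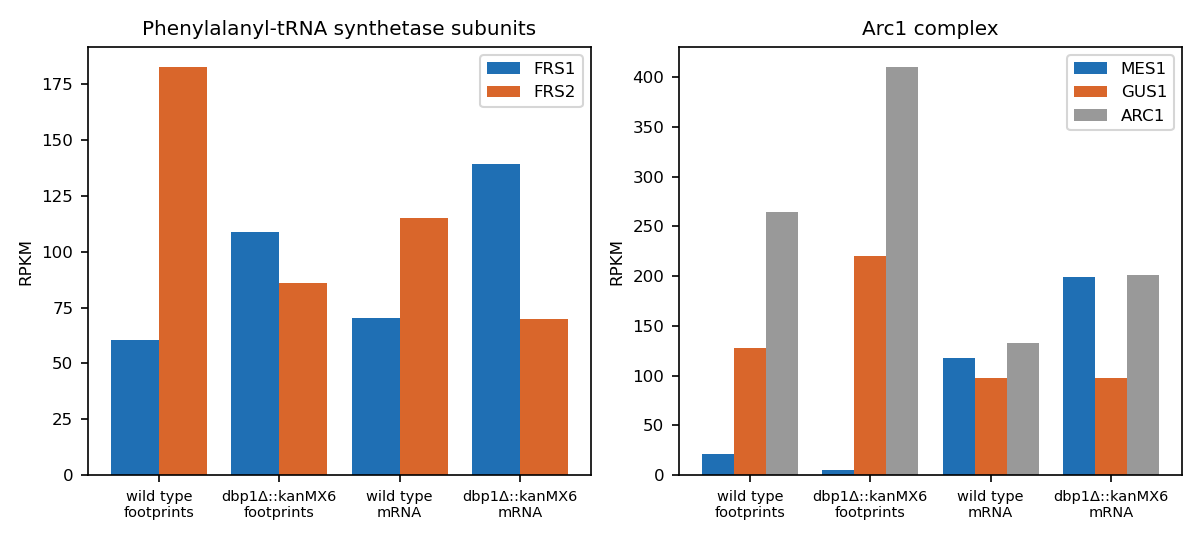
RPKM (linear scale from 0) of the phenylalanyl-tRNA synthetase subunits (left) and of the Arc1 complex (right) in the 4 libraries, 1 library per bar and no error bars. *FRS2* exceeds *FRS1* in wild type and *FRS1* exceeds *FRS2* in the mutant in both assays, and *MES1* footprints are far below those of *GUS1* and *ARC1* although its mRNA is not.

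Among the other cytosolic members, the arginyl enzyme YDR341C had the largest footprint increase. Its footprints were 47.4 RPKM (wild type) and 117.8 RPKM (mutant), 2.49-fold higher (2.19 to 2.83), and its mRNA 74.9 and 126.2 RPKM, 1.68-fold higher (1.48 to 1.92). *GLN4*, the glutaminyl enzyme, had the largest mRNA increase, 27.3 and 71.0 RPKM, 2.60-fold higher (2.18 to 3.13). Its footprints, 34.8 and 52.3 RPKM, were 1.50-fold higher (1.30 to 1.74), and its TE was 1.73-fold lower (1.38 to 2.19). YDR341C and *GLN4* thus differed in the direction of their TE change, higher by 1.47-fold (1.23 to 1.77) in the former. The isoleucyl enzyme *ILS1* also had a lower TE, by 1.50-fold (1.27 to 1.77). Its mRNA of 54.9 and 73.9 RPKM was level with the median entry, and the interval of its footprints, 51.6 and 46.4 RPKM, included no change. *KRS1* (lysyl) had mRNA of 65.0 and 130.2 RPKM, just past 2-fold higher (1.75 to 2.31), and a TE 1.33-fold lower (1.09 to 1.64), and the TE of *DED81* was also 1.33-fold lower (1.10 to 1.62). For *WRS1* (tryptophanyl), *SES1* (seryl) and *THS1* (threonyl), footprints were 1.46-fold to 1.67-fold higher, mRNA was 1.50-fold to 1.96-fold higher, and the TE intervals included no change. *DPS1* (aspartyl) footprints were 1.19-fold higher (1.09 to 1.29), below the median entry, and its mRNA interval included no change.

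The genes of the 5 enzymes that serve both compartments were all higher in the mutant in both assays. They encode the valyl (*VAS1*), histidyl (*HTS1*), glycyl (*GRS1*), alanyl (*ALA1*) and cysteinyl (YNL247W) enzymes, which have no separate mitochondrial gene. Footprints and mRNA were higher for all 5, with intervals that excluded no change, and all but *VAS1* exceeded the median entry in both. For comparison, footprints were higher for 68.7% of all entries and mRNA for 71.3%. Of the other 18 cytosolic members, 12 had higher footprints and 15 had higher mRNA. Footprints were 1.17-fold higher for *VAS1* (70.2 and 81.9 RPKM) and 1.64-fold to 1.94-fold higher for the others. The widest mRNA difference was that of YNL247W, 19.5 and 42.7 RPKM, 2.19-fold higher (1.76 to 2.74). TE of these 5 genes differed by at most 1.24-fold (*HTS1*), and each interval included no change. The files also list an entry that *GRS1* shares with YBR121C-A, at 13.9 and 69.9 RPKM of footprints and 125.7 and 143.1 RPKM of mRNA. The division of reads between this entry and *GRS1* is unknown, so the values of *GRS1* are uncertain, as is the assignment of reads that its paralog *GRS2* may share.

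*GRS2* remained far below *GRS1*. Its footprints were 6.5 RPKM (wild type) and 15.0 RPKM (mutant), an inferred 50 and 91 reads, 2.31-fold higher (1.61 to 3.32). Its mRNA was 19.3 and 23.6 RPKM, with an interval that included no change (0.935 to 1.59), and its TE was 1.89-fold higher (1.21 to 2.99). *GRS1* had 6.15-fold more footprints than *GRS2* in wild type (4.52 to 8.38) and 5.09-fold more in the mutant (4.04 to 6.40). The interval of the change in this ratio included no change (0.560 to 1.22). Their mRNA ratio was 3.55 (2.75 to 4.58) and 5.24 (4.52 to 6.10), 1.48-fold higher in the mutant (1.10 to 1.99).

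**Figure D4:**
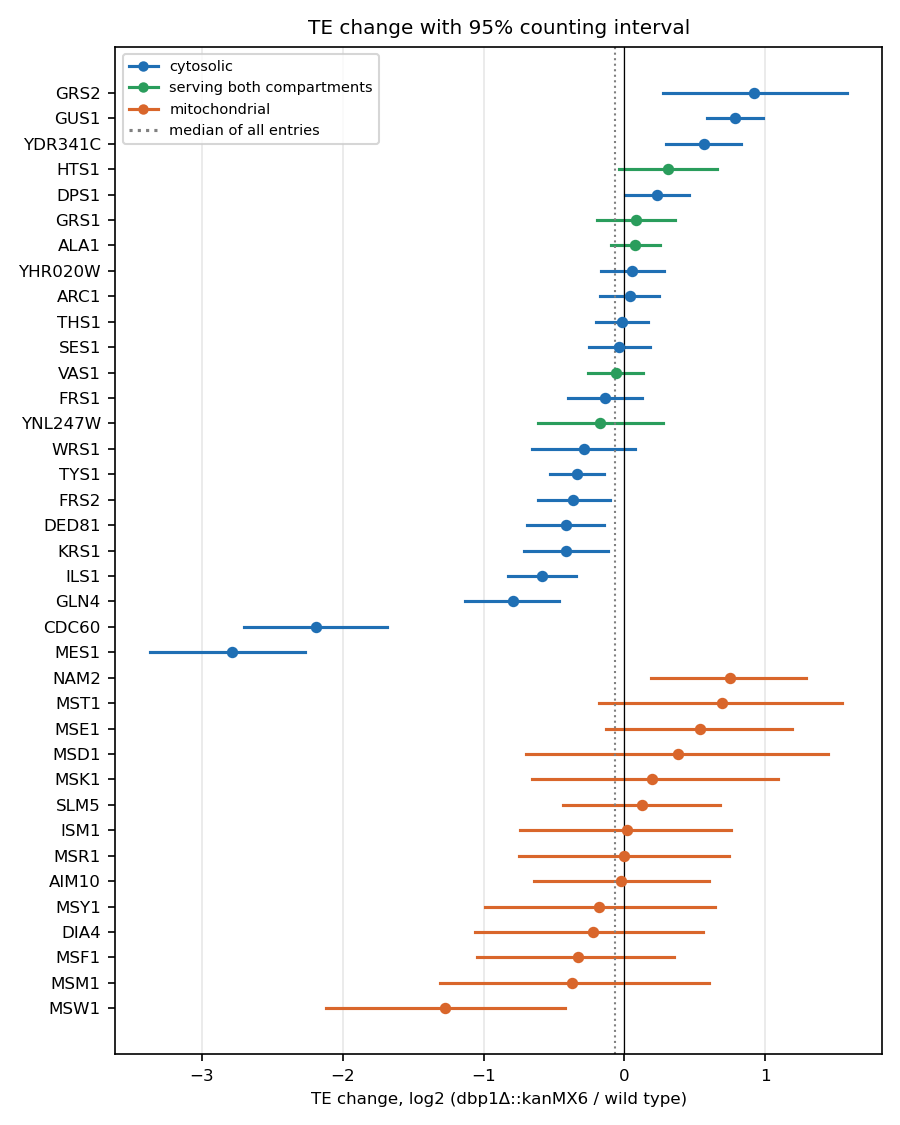
Log2 TE change, mutant over wild type, of each of the 37 members, with lines for the 95% counting interval and colour for the compartment. The dotted line is the median of all entries (−0.07). *MES1* and *CDC60* lie at −2.78 and −2.19, apart from the other members, and the intervals of most mitochondrial members include 0.

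The mitochondrial enzymes had fewer reads, and most of their footprint and TE differences were within counting error. Footprints were higher for 13 of the 14, as for 68.7% of all entries, and 5 of the 13 had an interval excluding no change. Their mRNA was also higher for 13, as for 71.3% of all entries, and 8 of those had such an interval. Relative to the median entry, 9 of the 14 were above for footprints and 8 for mRNA. The 5 with such footprints were *MSD1*, *MST1*, *MSE1*, *AIM10* and *DIA4*. *MSD1* (aspartyl) had footprints of 2.3 and 5.9 RPKM in wild type and the mutant, an inferred 19 and 38 reads, 2.57-fold higher (1.42 to 4.64). *MST1* (threonyl) had 5.2 and 12.7 RPKM, 2.44-fold higher (1.52 to 3.87), and *MSE1* (glutamyl) 8.4 and 16.5 RPKM, 1.96-fold higher (1.37 to 2.77). *AIM10* (prolyl) had 11.0 and 18.7 RPKM, 1.70-fold higher (1.26 to 2.31), and *DIA4* 12.8 and 18.9 RPKM, 1.48-fold higher (1.05 to 2.04). The mRNA of all 5 was higher as well, by 1.35-fold to 1.97-fold.

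TE differed beyond counting error for only a pair of the mitochondrial members, in opposite directions. *MSW1* (tryptophanyl) had mRNA of 13.8 and 33.1 RPKM, 2.40-fold higher (1.66 to 3.54), and footprints of 10.8 and 10.7 RPKM, so that its TE was 2.42-fold lower (1.34 to 4.34). *NAM2*, the leucyl enzyme, which also acts in the splicing of mitochondrial introns, was the single mitochondrial member with lower mRNA, at 18.7 and 14.8 RPKM. That difference was within counting error, as was that of its footprints (8.8 and 11.7 RPKM), but its TE was 1.68-fold higher (1.14 to 2.44). For *MSM1* (methionyl), *MSF1* (phenylalanyl), *ISM1* (isoleucyl), *MSY1* (tyrosyl), *MSK1* (lysyl), *SLM5* (asparaginyl) and *MSR1* (arginyl), the footprint and TE intervals included no change. Among these, only *MSM1* and *MSF1* had an mRNA interval that excluded it, at 1.85-fold higher (1.26 to 2.74) and 1.77-fold higher (1.27 to 2.51).

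For 14 amino acids the cytosol and the mitochondria use enzymes of separate genes, which gave 15 pairs because the cytosolic phenylalanyl enzyme has a gene for each subunit. In wild type the cytosolic gene had more footprints in all 15 pairs, by 1.44-fold (*CDC60* and *NAM2*) to 72.5-fold (*DPS1* and *MSD1*), with a median of 9.14-fold. In the mutant it did so in 13. The exceptions were leucine and methionine. *CDC60* footprints were below those of *NAM2* (4.2 against 11.7 RPKM), by 2.79-fold (1.93 to 4.02), although *CDC60* mRNA was 13.4-fold that of *NAM2*. *MES1* and *MSM1* were no longer told apart by footprints (5.1 against 6.0 RPKM, ratio 0.850, 0.509 to 1.37), whereas *MES1* mRNA was 11.9-fold that of *MSM1*. Mutant footprints of *CDC60*, *MES1* and *MSM1* all lay below the 6.9 RPKM left at the deleted *DBP1* ORF. In both genotypes the cytosolic gene had more mRNA in all 15 pairs, by at least 2.26-fold. The footprint change of the cytosolic gene exceeded that of its mitochondrial counterpart in 4 pairs (arginine, lysine, tryptophan and *FRS1* for phenylalanine), the mRNA change did so in 7 pairs and the TE change in 6. The compared genes are not replicates, and no test was made over the pairs.

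**Figure D5:**
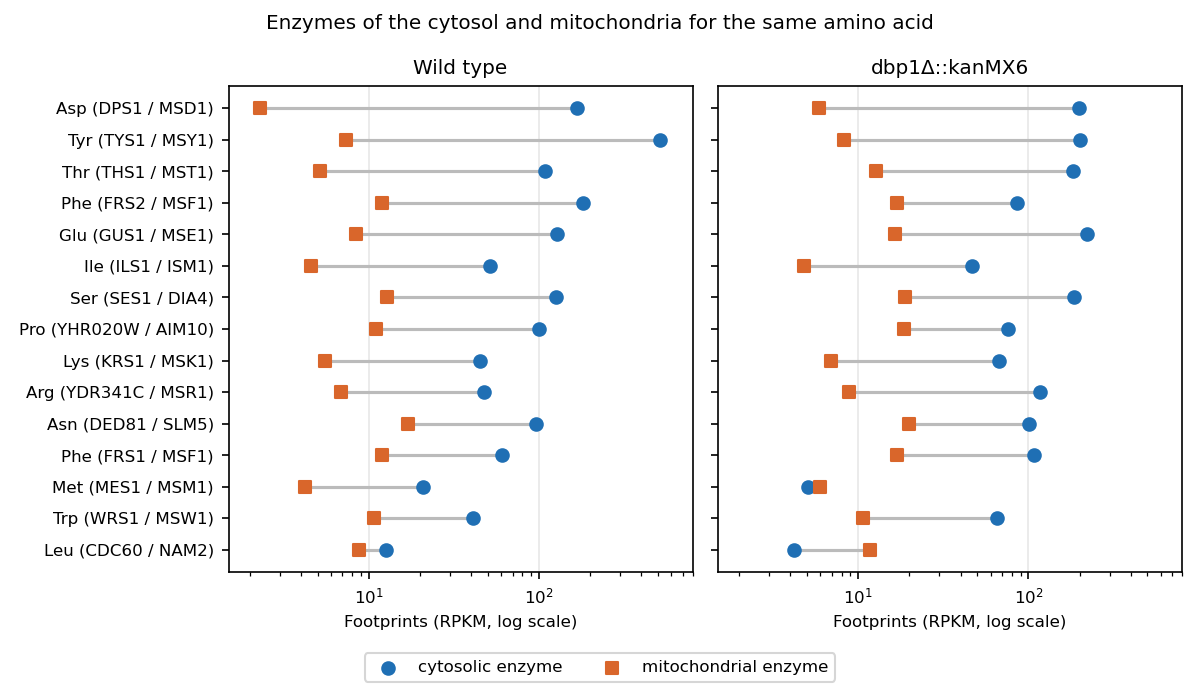
Footprints (RPKM, log scale) of the cytosolic (circles) and mitochondrial (squares) enzymes for the same amino acid, in wild type (left) and the mutant (right), 1 library each, ordered by their ratio in wild type. The cytosolic enzyme is higher in all 15 pairs in wild type and lower than or level with the mitochondrial one for leucine and methionine in the mutant.

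Across the 37 members, footprint and mRNA changes were related by a Pearson r of 0.439 and a Spearman rho of 0.433, against 0.714 and 0.666 over 5452 entries. Without *MES1* and *CDC60*, left out after their values were seen, r over the other 21 cytosolic members was 0.793 (rho 0.552), compared with 0.481 (rho 0.426) over all 23. Because *MES1* and *CDC60* had opposite footprint and mRNA changes, the higher r follows from leaving them out. The rho of 0.552 stayed below the 0.666 of all entries. These correlations are descriptions across genes of the same libraries. Of 17 class I genes, TE was higher for 5 and lower for 12, and of 19 class II genes it was higher for 10 and lower for 9, compared with 2441 higher and 3011 lower over all entries. No member overlaps another gene of the R64 table, although the treatment of strand by the authors is not given in the sources used here. The check was limited to genes of that table and did not show YBR121C-A, with which *GRS1* shares an entry. The member nearest to *DBP1* on chromosome XVI was *MSD1*, at a distance of 15 genes in that table.

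Other genes linked to tRNA or its charging were drawn from a list of 19. It included tRNA processing and export factors, mitochondrial tRNA-modifying enzymes, the mitochondrial amidotransferase that makes glutaminyl-tRNA, and Gcn proteins of the response to uncharged tRNA. Footprints were at least 2-fold higher for 3 of the 19 (15.8%, against 15.1% of all entries) and lower for 0 (against 8.23%). For mRNA, 4 were higher (21.1%, against 16.6%) and 1 was lower (5.26%, against 4.18%), and for TE, 0 were higher (against 3.43%) and 1 was lower (5.26%, against 6.07%). With 19 genes, 1 gene is 5.26% of the list, so these shares were too coarse to set apart from those of all entries. Their median log2 change was 0.63 for footprints, above the median entry (0.35), 0.28 for mRNA, below it (0.37), and 0.10 for TE, against −0.07. *TRZ1*, which trims the 3′ end of tRNA precursors, had footprints of 4.3 and 15.9 RPKM, 3.70-fold higher (2.64 to 5.39), and mRNA of 7.8 and 27.0 RPKM, 3.46-fold higher (2.50 to 4.81). *PET112*, a subunit of the amidotransferase, and *SLM3*, which thiolates mitochondrial tRNA, had 2.03-fold (1.39 to 2.94) and 2.11-fold (1.21 to 3.67) higher footprints. mRNA of *LOS1*, a tRNA exporter, was 10.1 and 21.9 RPKM (1.68-fold to 2.83-fold higher), and that of *THG1*, which prepares histidine tRNA, was 2.07-fold higher (1.62 to 2.65). *TUF1*, the mitochondrial elongation factor that carries charged tRNA to the ribosome, was lower in both assays, like *TYS1* and *FRS2*. Its mRNA was 231.1 and 113.1 RPKM, 2.04-fold lower (1.84 to 2.27), and its footprints were 261.4 and 142.4 RPKM, 1.84-fold lower (1.67 to 2.02). *MTO1*, a mitochondrial tRNA-modifying enzyme, passed 2-fold for mRNA and TE on 4 to 35 inferred reads, and its TE interval included no change. It was the 1 gene counted as lower for TE. Its mean of 2.0 RPKM was below the 10 RPKM required of the entries in the percentages for all entries.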

How the data were processed

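Footprint and mRNA libraries were made from wild-type and *dbp1Δ::kanMX6* SK1 cells, 1 library each. The deposited values are RPKM, which the authors calculated from reads per ORF, after mapping to the SK1 genome, normalized to ORF length and to library size (mapped reads), and rounded to 1 decimal. The processing notes of the submitters name CASAVA, bcl2fastq 2.17 and Bowtie2. Annotation, strand and multi-mapping treatment are not given in the sources used here. RPKM is relative to each library. Over entries with an R64 length, RPKM times length summed to 100.8% to 102.3% of the library size. A sum above the whole means that the size used, the lengths or the counting of reads differ from those assumed here, which was not tested. Shares of mapped reads are therefore approximate.

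Fold changes were ratios of RPKM with a pseudocount of 0, *dbp1Δ::kanMX6* over wild type, computed for all entries in Python 3.11.15 with SciPy 1.17.1. Summaries over all entries used those with a mean of at least 10 RPKM. All 37 members were kept, of which 33 passed that filter. A called change was at least 2-fold, since no test is possible with 1 library per group. Reads were inferred from the steps of RPKM values under 20 in ORFs under 500 bp, with R64 lengths, which put 71.0% to 75.8% of values on whole reads against 11.0% to 18.8% by chance. Intervals of ratios were exact conditional (Clopper-Pearson) intervals, and those of TE changes were exact conditional odds-ratio intervals. Depth inference and intervals were tested on simulated data. They treat each read as a separate molecule and cover counting error only. The members, the lists and the alternatives were chosen with earlier results of these data known, and the genes named are all 37 members, *DBP1*, its neighbor *MRP51*, the stage markers and those of the 19 other genes past 2-fold in any measure.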

Additional observations from a re-analysis of the deposited data

How the results depend on the processing

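Centring on the median entry moved the cytosolic medians to 0.24 for footprints and 0.22 for mRNA (from 0.59 for each), and the mitochondrial medians to 0.11 and 0.15 (from 0.45 and 0.52). Trimmed-mean scaling gave 0.24, 0.23, 0.10 and 0.15 in the same order. Both scalings left 5 members past 2-fold for footprints (from 8) and 3 for mRNA (from 5), and among members averaging 50 RPKM or more these counts were 5 and 2. Without the enzymes that serve both compartments, the cytosolic median TE change was −0.21 (from −0.06). At a 1.5-fold threshold 21 members passed for footprints, 21 for mRNA and 8 for TE, and at a 4-fold threshold 1 passed for footprints and 0 for mRNA. The TE change of *MES1* stayed within its counting interval under both pseudocounts and all 3 scalings. The scalings are no test of it, because their TE shifts were only −0.0689, −0.0155 and 0.0069 on the log2 scale. Such shifts are too small to leave that interval. Of 110 other single-gene changes, 0 left their interval with a pseudocount of 0.1 or 1, and 44 did so under centring, where 21 changed sign, none of them a change of at least 2-fold. No mitochondrial member reached a mean of 50 RPKM, so that filter gave no mitochondrial value. No paired analysis was possible because each group has 1 library, and leaving out a library was not possible for the same reason. Depth limited the mitochondrial members most, whose wild-type footprints rest on 19 to 103 inferred reads.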
